A study of Homo sapiens with 6 samples.

Results

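Cells make the 4 building blocks of DNA with a small set of enzymes, and 9 of them were examined in U87MG cells, a human glioblastoma line. The members were taken by name: RRM1, RRM2, TYMS, TK1, DTYMK, DUT, DCK, DCTD and SAMHD1. A member was read from an array row annotated with its symbol alone, and where it had several such rows the brightest was kept. On this rule 8 of the 9 genes had a value, of 22411 genes with a row of their own. The only row that names RRM1, the large subunit of ribonucleotide reductase, also names another gene, so no value of RRM1 is given. RRM2 had 2 rows, 1 of them annotated with an older symbol, and the other 7 genes had 1 row each. All 8 passed the filter on dim rows, a mean of at least 3.98 (log2) over the 6 arrays, as did 14376 genes in all.

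The cells had been infected with lentivirus carrying a short hairpin RNA named sh50 or sh52, or a hairpin against GFP (shGFP), the control. Every culture had been drug-selected and then grown to subconfluence for 5 days before total RNA was taken. Each hairpin had 2 arrays, replicates 1 and 2, and the labels do not say whether these were separate infections, so a p-value speaks for the scatter of these arrays alone, and that scatter may be technical. The title names SAT1, a polyamine acetyltransferase, and the design text states no target for either hairpin clone. SAT1 stood at 9.36 and 8.35 with sh50, at 10.83 and 7.84 with sh52 and at 9.45 and 8.96 with shGFP (log2, replicates 1 and 2). From shGFP, SAT1 differed by -0.35 ± 0.96 (SE) with sh50 and by 0.13 ± 0.96 with sh52 (limma, adjusted p = 0.982 and 0.98). SAT1 was highest on the array labelled sh52 replicate 1, where a hairpin against SAT1 would lower it, and the reason was not tested. That array also had the highest mean of 8 spike-in controls (9.83, against 8.88 to 9.26 on the other arrays). The sh52 means and differences draw on that array unless it is said to be left out. Of 10 glioma and glial markers 7 were above the filter. VIM lay at 15.54 to 16.10 and GFAP at 4.41 to 4.56, and S100B, SOX2 and OLIG2 were below it. Of 7 blood and immune markers with a row, CD68 alone was above the filter (15.34 to 15.85), and of 6 epithelial markers EPCAM (4.72 to 5.31) and MUC1 (3.86 to 4.55) were.

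Deoxynucleotides are made by reduction of ribonucleotides, by ribonucleotide reductase, or by salvage of deoxynucleosides that kinases phosphorylate. Thymidylate is made by methylation of deoxyuridylate, and uracil is kept out of DNA by hydrolysis of dUTP. Several of these genes are transcribed mainly as cells enter and pass through S phase, under E2F and related factors, while others are expressed through the whole cycle. In cancer treatment the pathway is best known as the target of antimetabolite drugs.

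The promoters of 6 members are shown because the arrays separated these genes: the first 5 had every hairpin array below both controls, and SAMHD1, an enzyme that destroys deoxynucleotides, did not. Each run is 300 bases, from 250 before to 50 after a RefSeq transcription start, in GRCh38.p14, 5′ to 3′ along the gene's strand. Capitals mark matches on either strand to an E2F-type core, to a CCAAT box (the letters CCAAT) or to a cell cycle homology region. The core was searched in 4 spellings, of which the first was TTCCCGC, another was TTCGCGC, a further one was TTGCCGC and the last was TTGGCGC. The homology region was searched as TTTGAA and also as TTCGAA. An E2F-type core and a CCAAT box can share bases. For a gene with several starts, the window with the most matches is printed.
RRM2, chr2:10122489-10122788, plus strand: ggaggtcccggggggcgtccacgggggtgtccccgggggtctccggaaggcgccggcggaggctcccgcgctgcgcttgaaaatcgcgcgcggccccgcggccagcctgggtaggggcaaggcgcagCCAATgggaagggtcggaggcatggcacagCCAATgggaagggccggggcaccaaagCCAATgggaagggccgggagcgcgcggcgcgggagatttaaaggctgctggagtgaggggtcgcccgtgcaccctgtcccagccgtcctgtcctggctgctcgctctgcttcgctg
TYMS, chr18:657403-657702, plus strand: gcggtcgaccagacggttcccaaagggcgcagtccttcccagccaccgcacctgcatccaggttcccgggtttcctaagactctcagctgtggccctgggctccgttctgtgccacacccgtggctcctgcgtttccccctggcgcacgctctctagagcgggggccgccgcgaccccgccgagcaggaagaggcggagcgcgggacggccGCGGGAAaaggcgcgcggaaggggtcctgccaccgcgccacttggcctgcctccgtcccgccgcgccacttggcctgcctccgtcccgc
TK1, chr17:78187003-78187302, minus strand: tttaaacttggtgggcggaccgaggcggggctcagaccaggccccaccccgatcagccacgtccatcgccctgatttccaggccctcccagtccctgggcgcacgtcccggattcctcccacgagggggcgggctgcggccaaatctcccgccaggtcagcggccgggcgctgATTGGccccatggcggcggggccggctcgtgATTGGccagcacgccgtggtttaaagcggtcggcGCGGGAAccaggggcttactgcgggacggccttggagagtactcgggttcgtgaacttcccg
DTYMK, chr2:241686766-241687065, minus strand: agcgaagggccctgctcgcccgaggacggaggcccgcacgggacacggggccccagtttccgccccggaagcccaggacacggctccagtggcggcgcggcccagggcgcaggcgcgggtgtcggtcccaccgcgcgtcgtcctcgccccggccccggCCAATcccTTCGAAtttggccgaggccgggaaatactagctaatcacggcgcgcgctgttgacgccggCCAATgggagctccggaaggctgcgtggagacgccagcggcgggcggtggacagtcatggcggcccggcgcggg
DUT, chr15:48331947-48332246, plus strand: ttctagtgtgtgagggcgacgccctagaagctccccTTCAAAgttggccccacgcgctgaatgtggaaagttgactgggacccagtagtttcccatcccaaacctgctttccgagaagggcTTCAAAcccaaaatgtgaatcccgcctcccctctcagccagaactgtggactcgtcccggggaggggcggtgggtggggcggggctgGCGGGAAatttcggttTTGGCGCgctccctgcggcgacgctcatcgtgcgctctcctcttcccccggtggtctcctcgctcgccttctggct
SAMHD1, chr20:36951659-36951958, minus strand: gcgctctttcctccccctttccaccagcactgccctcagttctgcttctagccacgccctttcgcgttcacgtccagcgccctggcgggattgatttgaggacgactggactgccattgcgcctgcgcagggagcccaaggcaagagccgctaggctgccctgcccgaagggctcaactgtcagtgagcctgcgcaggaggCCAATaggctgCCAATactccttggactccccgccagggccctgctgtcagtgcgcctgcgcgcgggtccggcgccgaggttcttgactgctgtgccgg
Over all windows of a gene, an E2F-type core was found in 5 of the 8 members (DCK, DUT, RRM2, TK1 and TYMS), and in 15.3% of 27305 genes. A CCAAT box was found in 4 (DTYMK, RRM2, SAMHD1 and TK1), and in 39.7% of genes. A cell cycle homology region was found in 2 (DTYMK and DUT), and in 19.5% of genes. RRM2 had 3 CCAAT boxes in the window printed and its E2F-type core in its other window. TK1 had 2 CCAAT boxes and 1 core, and DUT had 2 cores. DCK, which overlapped the controls and is not printed, had 3 cores, while DTYMK had 0. The printed windows were chosen by the array values, and a link between matches and values was not tested. A match describes letters in these windows and is neither a bound site nor a cause.

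Ribonucleotide reductase supplies all 4 deoxynucleotides, and RRM2 is its small subunit, made in S phase. RRM2 stood at 11.11 and 8.87 with sh50, at 10.96 and 10.48 with sh52 and at 11.61 and 11.15 with shGFP (log2, replicates 1 and 2). All 4 hairpin arrays lay below both controls, but sh50 replicate 1 was only just below the lower control and sh50 replicate 2 was far below every other array. The difference from shGFP was -1.39 (95% interval -3.15 to 0.37) with sh50 and -0.66 (-2.42 to 1.10) with sh52, and both intervals include 0. These come from a fit without the replicate number. With that number as a block the differences were the same and their standard error was 0.48, against 0.71 without it. The adjusted p with the block was 0.441 for sh50 and 0.664 for sh52 (limma). Without sh50 replicate 2 the sh50 difference was -0.27, and without sh50 replicate 1 it was -2.51. The sh52 difference was -0.42 without sh52 replicate 2 and -0.43 without shGFP replicate 1. With the mean of both RRM2 rows in place of the brighter one, the difference was -0.82 with sh50 and -0.27 with sh52, and the sh52 arrays overlapped the controls. Against the control of the same replicate number, sh52 differed by -0.65 in replicate 1 and -0.67 in replicate 2, while sh50 differed by -0.50 and -2.28. After quantile normalization or median centring, RRM2 no longer separated sh50 from the controls, though sh52 still did.

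Thymidylate is the one deoxynucleotide with a synthesis step of its own. TYMS, thymidylate synthase, converts deoxyuridylate to thymidylate. It stood at 11.96 and 10.75 with sh50 and at 11.34 and 12.09 with sh52, against 12.71 and 12.73 with shGFP. The controls were nearly equal and all 4 hairpin arrays were below them. The difference was -1.36 ± 0.45 (SE) with sh50 and -1.0 ± 0.45 with sh52 (limma, adjusted p = 0.54 and 0.592). Leaving out sh50 replicate 2 brought the sh50 difference to -0.75, and leaving out the array labelled sh52 replicate 1 brought the sh52 difference to -0.63.

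TK1, the cytosolic thymidine kinase of the salvage route, was likewise lower on every hairpin array. It stood at 8.66 and 7.92 with sh50 and at 8.53 and 8.92 with sh52, against 9.38 and 9.67 with shGFP. Neither hairpin overlapped shGFP, though the hairpins overlapped each other. The difference was -1.24 ± 0.30 (SE) with sh50 and -0.81 ± 0.30 with sh52 (limma, unadjusted p = 0.00673 and 0.0374, adjusted p = 0.475 and 0.543). With sh52 the 2 replicates gave -0.86 and -0.76 against their own controls. DTYMK, thymidylate kinase, which takes the products of both enzymes one phosphate further, was at 7.63 and 7.30 with sh50 and at 7.46 and 7.51 with sh52, against 8.12 and 8.06 with shGFP. All 4 hairpin arrays lay below both controls, and sh50 replicate 2 was lowest. The 2 hairpins gave almost the same difference, -0.62 ± 0.17 (SE) with sh50 and -0.60 ± 0.17 with sh52 (limma, adjusted p = 0.504 for both). With any 1 array left out, the sh50 difference ran from -0.78 to -0.46 and the sh52 difference from -0.63 to -0.57.

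DUT hydrolyses dUTP, which both protects DNA from uracil and supplies the substrate of TYMS. It stood at 7.28 and 6.54 with sh50 and at 7.69 and 7.54 with sh52, against 8.0 and 8.05 with shGFP. Here the hairpins themselves did not overlap, with both sh50 arrays lowest. The difference from shGFP was -1.12 ± 0.27 (SE) with sh50 and -0.41 ± 0.27 with sh52 (limma, unadjusted p = 0.00643 and 0.177, adjusted p = 0.475 and 0.694). Set directly against each other, sh52 was above sh50 by 0.71 (95% interval 0.05 to 1.36; limma, unadjusted p = 0.0397, adjusted p = 0.775). Without sh50 replicate 2 the sh50 difference from shGFP was -0.75. For the other 7 members the unadjusted p between the hairpins was 0.199 or more. Between the hairpins 0 of 33764 clusters (0%) were called by limma and 2138 (6.33%) had an unadjusted p under 0.05. Of these, 998 had sh52 higher, as DUT had, and 1140 (3.38% of all clusters) had sh52 lower. Both sh52 arrays lay above both sh50 arrays for 1 member and 17.3% of all clusters, and below them for 0 members and 16.6%. Those intervals remain wide, from -1.03 to 2.49 for RRM2, so they do not show that the hairpins act alike.

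**Figure D1:**
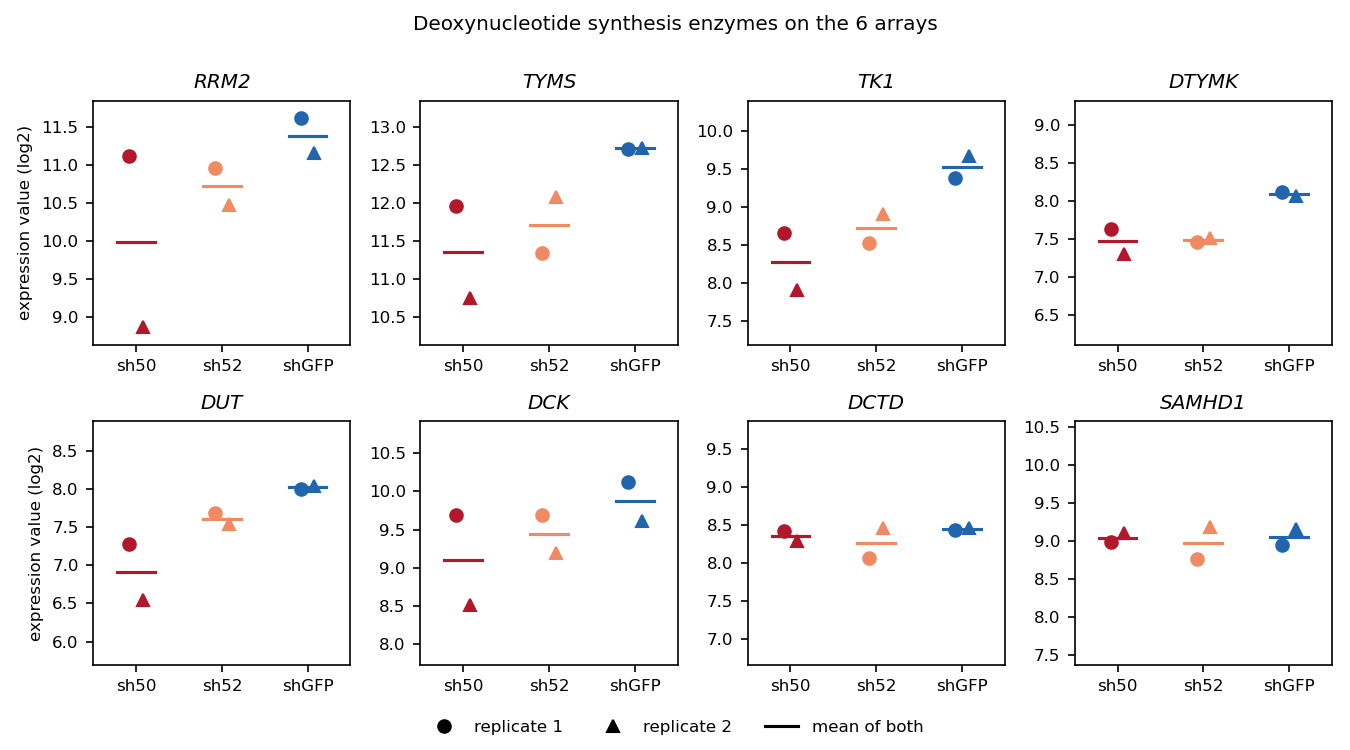
Expression value (as deposited, taken as log2) of each of the 8 enzymes on the sh50, sh52 and shGFP arrays, with circles for replicate 1, triangles for replicate 2 and lines for the mean of both. Every panel spans the same number of log2 units. RRM2, TYMS, TK1, DTYMK and DUT have all 4 hairpin arrays below both controls, while DCTD and SAMHD1 lie nearly flat.

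DCK starts the salvage of deoxycytidine, deoxyadenosine and deoxyguanosine. It stood at 9.69 and 8.52 with sh50 and at 9.69 and 9.19 with sh52, against 10.13 and 9.62 with shGFP. The groups overlapped, since replicate 1 of either hairpin lay just above shGFP replicate 2. The difference was -0.77 (95% interval -1.84 to 0.30) with sh50 and -0.44 (-1.51 to 0.64) with sh52. With the replicate number as a block the differences were the same and their standard error was 0.23, against 0.43 without it. The adjusted p with the block was 0.396 for sh50 and 0.559 for sh52 (limma). Within a replicate number the values were closer together: sh52 minus its control was -0.44 in replicate 1 and -0.43 in replicate 2, and sh50 minus its control was -0.44 and -1.10. The sh50 difference was -0.19 without sh50 replicate 2 and -1.36 without sh50 replicate 1. The sh52 difference was -0.18 without shGFP replicate 1, -0.19 without sh52 replicate 2 and -0.69 without either of the other arrays of these groups.

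DCTD and SAMHD1 had the smallest differences. DCTD, the deaminase that makes deoxyuridylate from deoxycytidylate and so feeds TYMS, was at 8.42 and 8.29 with sh50 and at 8.06 and 8.46 with sh52, against 8.44 and 8.46 with shGFP. The array labelled sh52 replicate 1 was its lowest. The difference was -0.094 (95% interval -0.57 to 0.38) with sh50 and -0.18 (-0.66 to 0.29) with sh52, and without that array the sh52 difference was 0.017. SAMHD1 hydrolyses deoxynucleotides and keeps the pool small outside S phase. It was at 8.99 and 9.10 with sh50 and at 8.76 and 9.19 with sh52, against 8.95 and 9.16 with shGFP. The difference was -0.0055 (95% interval -0.51 to 0.50) with sh50 and -0.078 (-0.58 to 0.43) with sh52. Without the array labelled sh52 replicate 1 the sh52 value was 0.14, of the opposite sign. Without shGFP replicate 2 it was 0.029 for sh52 and 0.10 for sh50, and without sh50 replicate 1 the sh50 value was 0.050.

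**Figure D2:**
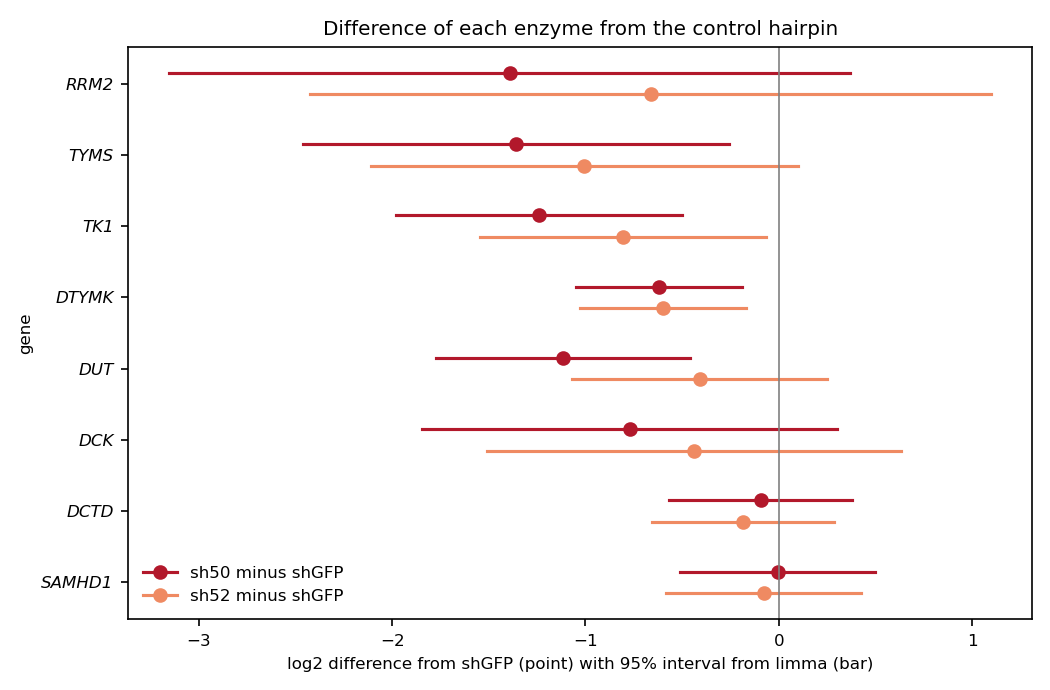
Difference from shGFP of each enzyme (log2, point) with its 95% interval from limma without a block for the replicate number (bar), sh50 above sh52 for each gene. The intervals of TK1 and DTYMK exclude 0 for both hairpins, those of TYMS and DUT for sh50, and SAMHD1 lies at -0.0055 for sh50.

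No member passed the test across all transcripts in either hairpin comparison. By limma, at an adjusted p of 0.05, 0 of 33764 transcript clusters (0%) were called for sh50 and 0 for sh52. At an unadjusted p under 0.05 there were 2784 (8.25%) for sh50 and 2964 (8.78%) for sh52, 4.19% and 4.51% of all clusters on the lower side. Of the 8 members, 4 (TYMS, TK1, DTYMK and DUT) had such a p with sh50 and 2 (TK1 and DTYMK) with sh52, all lower. Both sh50 arrays lay below both controls for 6 members, which include DCTD, and for 20.9% of all clusters, and above both controls for 0 members and 18.4% of clusters. After quantile normalization or median centring the 6 became 4 (TYMS, TK1, DTYMK and DUT), against 21.2% and 22.6% of all clusters. Both sh52 arrays lay below both controls for 5 members, against 19.5% of all clusters, and above both for 0 members, against 20.2%. Without the array labelled sh52 replicate 1, the one remaining sh52 array lay outside the range of the controls for all 8 members, 6 below and 2 above, a looser condition that 66.6% of all clusters met (33.9% below and 32.7% above). The median difference over the 8 members was -0.94 with sh50 and -0.52 with sh52, where over all clusters it was -0.012 and 0.00073. The sh50 and sh52 comparisons share their control arrays, so these are not 2 independent observations. In RNA from whole cultures, fewer cells with a transcript and less of it per cell cannot be told apart.

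With both hairpins averaged, the differences were, by size, TYMS (-1.18), RRM2 (-1.03), TK1 (-1.02), DUT (-0.76), DTYMK (-0.61), DCK (-0.60), DCTD (-0.14) and SAMHD1 (-0.042). Their standard errors ran from 0.15 for DTYMK to 0.61 for RRM2, and differences between members were not tested. The order rests on single arrays. RRM2 was at -0.47 without sh50 replicate 2, at -1.59 without sh50 replicate 1 and at -0.55 with the mean of its rows. DCK was at -0.31 without sh50 replicate 2 and at -0.35 without shGFP replicate 1, and DCTD ran from -0.24 to -0.039. The smallest unadjusted p belonged to DTYMK (0.00752) and TK1 (0.00832), both with an adjusted p of 0.469 by limma. RRM2 had one of the largest differences and an unadjusted p of 0.149, and its 95% interval ran from -2.55 to 0.50. With the replicate number as a block its standard error was 0.42, against 0.61 without it (limma, adjusted p = 0.457 with the block). By limma 0 of 33764 clusters (0%) were called in this comparison, and 3102 (9.19%) had an unadjusted p under 0.05, 4.83% of all clusters on the lower side. All 4 hairpin arrays lay below both controls for 5 members and for 10.1% of all clusters, and above both for 0 members and 8.98% of clusters. The 5 were RRM2, TYMS, TK1, DTYMK and DUT, and after quantile normalization or centring they were these without RRM2.

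The array farthest from the others for most members was sh50 replicate 2. On sh50 replicate 2, 6 of the 8 members had their lowest value of all 6 arrays, and the other 2, DCTD and SAMHD1, had theirs on the array labelled sh52 replicate 1. Against the control of the same replicate number, sh50 was lower in replicate 2 than in replicate 1 for all 8 members, as it was for 51.2% of all clusters. The median of the 8 differences was -1.30 in replicate 2 and -0.49 in replicate 1 for sh50. For sh52 the medians were -0.53 and -0.55, and replicate 2 was the lower for 2 members, against 56.7% of all clusters. The cell cycle markers had their lowest median on the same array. That median, each gene centred on its own mean over the arrays, was -1.05 on sh50 replicate 2, against 0.16 on sh50 replicate 1, -0.59 and -0.15 with sh52 and 0.68 and 0.88 with shGFP. All 12 had a lower estimate with each hairpin and 0 were called by limma, and their part in the members' differences was not tested. MKI67, a marker of cycling cells, differed by -1.82 ± 0.40 (SE) with both hairpins averaged, and the replication genes PCNA and MCM2 by -0.94 ± 0.35 and -1.08 ± 0.34 (limma, adjusted p = 0.456, 0.525 and 0.484).

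The replicate numbers were then compared over the 3 hairpin groups, with the hairpin in the fit. DCK had the smallest p among the members, and RRM2 the largest difference. DCK's replicate 1 arrays stood at 9.69 with sh50, 9.69 with sh52 and 10.13 with shGFP, and DCK's replicate 2 arrays at 8.52, 9.19 and 9.62. All 3 replicate 1 arrays lay above all 3 replicate 2 arrays. Replicate 1 minus replicate 2 was 1.17, 0.50 and 0.51 in the 3 groups, and 0.73 ± 0.19 (SE) overall (limma, unadjusted p = 0.0117, adjusted p = 0.358). RRM2 had the same sign in every group, with 2.25, 0.48 and 0.46 and an overall difference of 1.06 ± 0.39 (limma, unadjusted p = 0.0423, adjusted p = 0.465). Without either sh50 array it was 0.47, and with the mean of both RRM2 rows 0.54. SAMHD1 ran the other way, with -0.11, -0.43 and -0.21 and all 3 replicate 1 arrays below all 3 replicate 2 arrays, and an overall difference of -0.25 ± 0.14 (limma, adjusted p = 0.634).

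The thymidylate genes did not follow the number. Replicate 1 minus replicate 2 was 1.21 for TYMS with sh50, -0.75 with sh52 and -0.015 with shGFP. For TK1 it was 0.74, -0.39 and -0.29. Overall TYMS differed by 0.15 ± 0.38 (SE) and TK1 by 0.021 ± 0.26, and without either sh50 array both turned, to -0.38 and -0.34. DUT (0.28), DTYMK (0.11) and DCTD (-0.097) differed by less than 1.5 times their standard errors, and DCTD turned to 0.056 without either sh52 array. None of the 8 members was called by limma, where 9 of 33764 clusters were (0.0267%). An unadjusted p under 0.05 (limma) was found for 3495 clusters (10.4%), 1353 on the higher side and 2142 (6.34% of all clusters) on the lower side. Such a p was found for 2 members, DCK and RRM2, both on the higher side. Of the members, 1 (DCK) had replicate 1 wholly above replicate 2, against 4.01% of all clusters, and 1 (SAMHD1) wholly below, against 8.42%. SAT1 also had all 3 replicate 1 arrays above all 3 replicate 2 arrays, with a difference of 1.5 ± 0.50 (SE; adjusted p = 0.424).

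**Figure D3:**
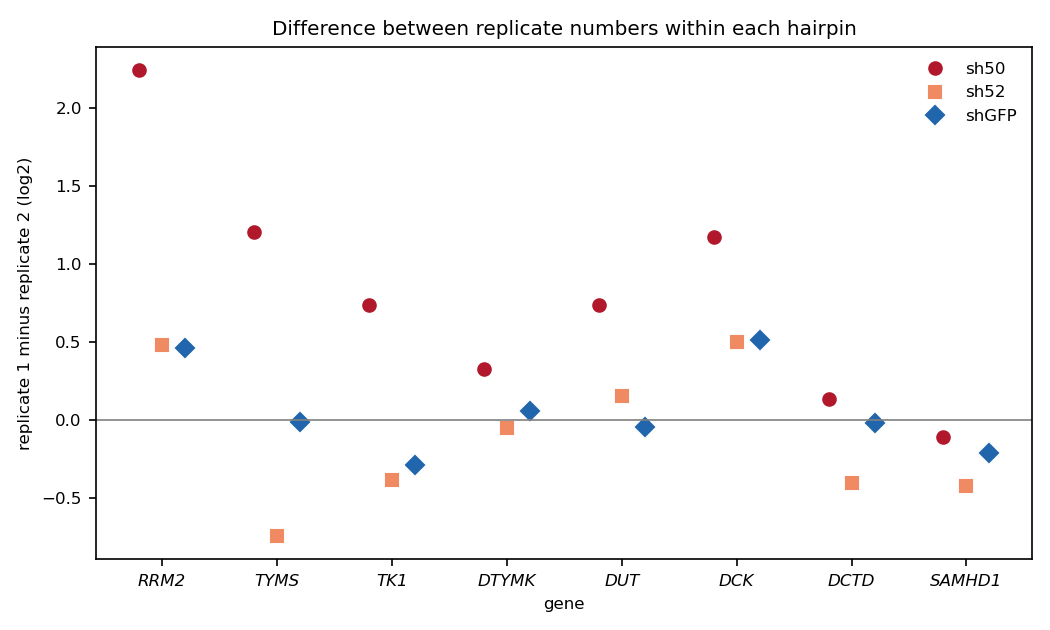
Replicate 1 minus replicate 2 (log2) of each enzyme within sh50 (circles), sh52 (squares) and shGFP (diamonds). RRM2 and DCK are above 0 in all 3 groups and SAMHD1 below 0 in all 3, while TYMS and TK1 are above 0 with sh50 (1.21 and 0.74) and below 0 with sh52 (-0.75 and -0.39).

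Profiles over the 6 arrays were compared between genes by the root mean square difference of their log2 values, each gene centred on its own mean. All genes are read on the same 6 arrays and so share each array's RNA and hybridisation, and the measure describes likeness only. Among the members DCTD and SAMHD1 were nearest to each other (0.10), both nearly flat, and the thymidylate pair TYMS and TK1 came next (0.20). TK1 and DUT were 0.24 apart, DTYMK and DCTD 0.255 and DUT and DCK 0.28. RRM2 was nearest to DCK (0.40) and farthest from SAMHD1 (0.94). Over all 14376 genes the nearest to RRM2 were UBE2T (0.19), CENPQ (0.20) and UBE2S (0.25), where the median gene was 0.92 away. The nearest to TYMS were H2BC10 (0.045), MYBL2 (0.083) and NDC1 (0.13), and to TK1 HMGN2P25 (0.057), HMGN2 (0.080) and CDCA7L (0.095). DTYMK was nearest to ALMS1-IT1, DR1 and DBF4B, at 0.038 to 0.062, and DUT to ENOPH1, G3BP1 and SLC43A3, at 0.098 to 0.11. DCK was nearest to MYO10, SLFN11 and ALG10, at 0.11 to 0.12. For the flat members DCTD and SAMHD1 the nearest were GTPBP10, RPS6KA4 and PTPN2, and PIP4K2C, ZNF787 and NRAV, at 0.020 to 0.033. The median gene was only 0.24 away from DCTD and from SAMHD1, and 0.37 from DTYMK. A small distance therefore says less for these members than for RRM2.

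Other genes of deoxynucleotide handling had a median difference near that of all clusters. RRM2B, the small subunit that p53 induces and that serves resting and damaged cells, stood at 11.54 and 12.31 with sh50 and at 11.48 and 11.81 with sh52, against 10.22 and 11.79 with shGFP. Its groups overlapped, and shGFP replicate 1 was its lowest array. The difference with both hairpins averaged was 0.78 ± 0.47 (SE; limma, adjusted p = 0.692), and without shGFP replicate 1 it was -0.0060. Replicate 1 minus replicate 2 was -0.89 ± 0.26, with all 3 replicate 1 arrays below all 3 replicate 2 arrays (adjusted p = 0.392). The mitochondrial salvage kinases TK2 and DGUOK differed by 0.071 ± 0.14 and 0.12 ± 0.14 with both hairpins averaged, and TK2 turned to -0.018 without shGFP replicate 2. Of 34 further genes of kinases, nucleotidases, transporters and pool sanitation, 29 were tested and 0 were called by limma, with 15 higher and 14 lower estimates. Their median was 0.020, where that over all clusters was -0.0045. An unadjusted p under 0.05 (limma) was found for 1 of the 29, on the higher side, and for 9.19% of all clusters in either direction. The 3 with the largest difference were DCTPP1, which clears modified dCTP (-1.08 ± 0.53), RRM2B and the purine phosphorylase gene PNP (-0.77 ± 0.54). DCTPP1 was at -0.64 without the array labelled sh52 replicate 1. PNP was at -0.30 without sh50 replicate 2, -0.47 without shGFP replicate 1 and -1.24 without sh50 replicate 1. DGUOK ran from 0.064 to 0.18 with 1 array left out.

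Genes that make the ribonucleotide precursors mostly had lower estimates. All 5 genes of de novo pyrimidine synthesis had a lower estimate with both hairpins averaged, with a median of -0.52 and 0 called by limma. CTPS1, which makes CTP, was at 9.72 and 8.48 with sh50 and at 7.80 and 8.60 with sh52, against 9.92 and 9.77 with shGFP. All 4 hairpin arrays were below both controls, the array labelled sh52 replicate 1 lowest. The difference was -1.20 ± 0.40 (SE; adjusted p = 0.499). CAD, which carries the first steps of the route, differed by -0.52 ± 0.28 and UMPS, the last enzyme of UMP synthesis, by -0.54 ± 0.29. Without the array labelled sh52 replicate 1 these were -0.30 and -0.36, and UMPS was at -0.33 without shGFP replicate 2. Of 14 purine synthesis and salvage genes tested, 12 had a lower and 2 a higher estimate, with a median of -0.47 and 0 called. PFAS differed by -0.78 ± 0.34, ADSL by -0.76 ± 0.22 and GART by -0.74 ± 0.28, all 3 enzymes of inosinate synthesis (limma, adjusted p = 0.565, 0.469 and 0.525). PFAS was at -0.51 without the array labelled sh52 replicate 1.

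The folate cycle carries the one-carbon unit that TYMS uses. Of its 16 listed genes 12 were tested, 7 lower and 5 higher with both hairpins averaged, with a median of -0.17 and 0 called by limma. ALDH1L2, a mitochondrial folate dehydrogenase, differed by 1.02 ± 0.60 (SE), MTHFD1, which interconverts folate one-carbon forms, by -0.70 ± 0.40, and GGH, which removes folate polyglutamates, by -0.50 ± 0.25. Without the array labelled sh52 replicate 1, ALDH1L2 was at 0.56 and MTHFD1 at -0.35, and without sh52 replicate 2 MTHFD1 was at -1.05. A list of 9 regulators held proteins that act on ribonucleotide reductase or SAMHD1, such as CCNF, which marks RRM2 for degradation, and cyclin A with CDK1 and CDK2, which phosphorylate SAMHD1. With both hairpins averaged all 9 had a lower estimate, with a median of -0.82 and 0 called by limma. Of the 9, 5 had an unadjusted p under 0.05 (limma), all lower, as had 4.83% of all clusters. With sh50 8 were lower and 1 higher, and 4 had such a p, all lower, against 4.19% of all clusters. With sh52 all 9 were lower and 2 had such a p, against 4.51%. Of the 12 cell cycle markers, 11 had such a p with both averaged, 10 with sh50 and 7 with sh52, all lower. Among the regulators, with both averaged, CCNA2 differed by -1.39 ± 0.49, CDK1 by -1.22 ± 0.61 and CDK2 by -1.07 ± 0.37 (limma, adjusted p = 0.509, 0.613 and 0.505). CDK1 was at -0.61 without shGFP replicate 1, -0.74 without sh50 replicate 2 and -1.83 without shGFP replicate 2. All 3 had their lowest value on sh50 replicate 2, as RRM2, TYMS, TK1, DTYMK, DUT and DCK had.

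**Figure D4:**
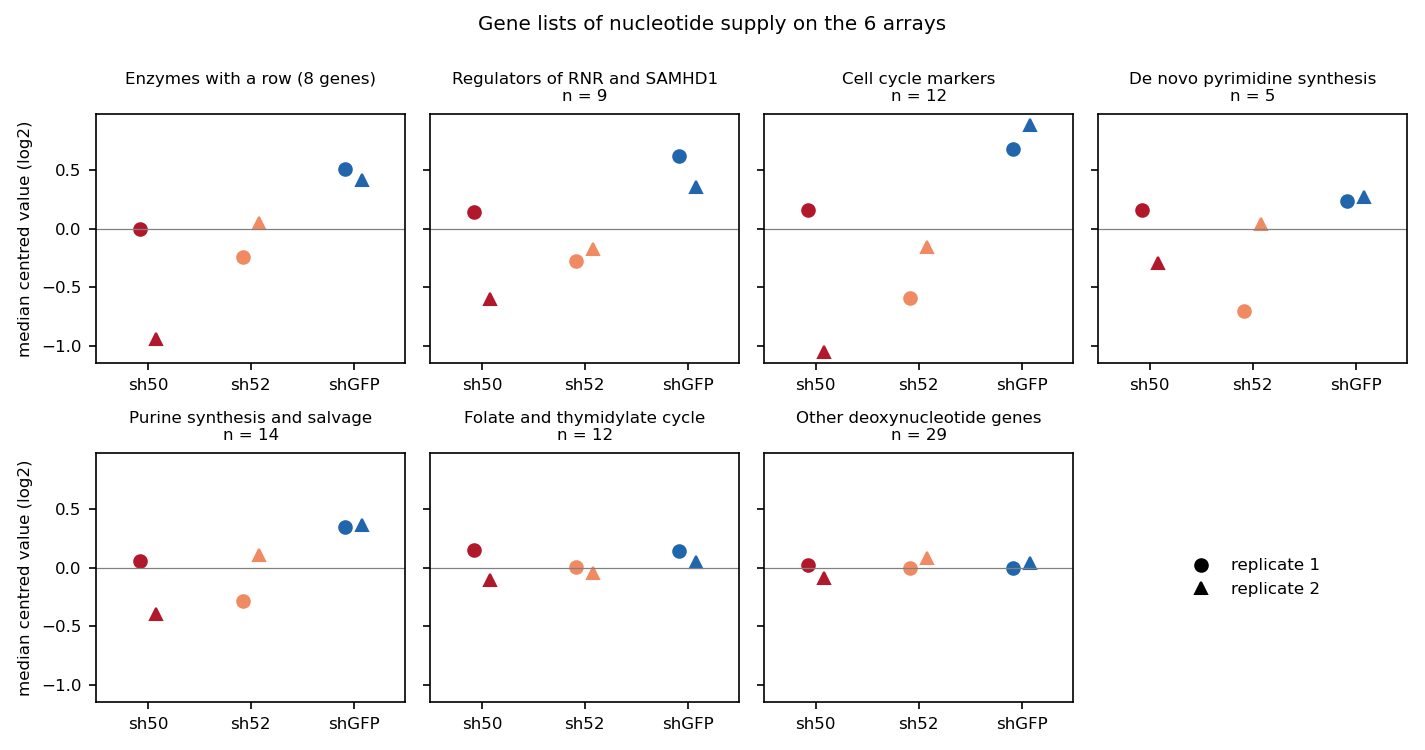
Median log2 value of each gene list on each array, every gene centred on its mean over the 6 arrays, for sh50, sh52 and shGFP, with circles for replicate 1 and triangles for replicate 2. The 8 enzymes lie at -0.94 on sh50 replicate 2 and at 0.51 and 0.42 on the shGFP arrays, and the 29 other deoxynucleotide genes stay between -0.091 and 0.086.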

How the data were processed

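The authors deposited log2 expression values, made by RMA with the Expression Console software on core exons, per the labels. The submitters' processing notes also name Transcriptome Analysis Console. Not given in the sources used here were software versions, the genome build and the base of the logarithm, which was taken as 2. The values run from 1.38 to 19.9. RMA's quantile step gives all arrays nearly the same distribution, so a shift shared by all transcripts would not be seen. Precision is limited by the number of arrays.

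Of 70523 features, 67528 were transcript clusters, and 33764 with a mean at or above their median (3.98) were tested. Platform annotation gave 23781 clusters 1 symbol and 1543 several, and left 42204 without a name. Names were brought up to date through the GRCh38.p14 gene table. With limma 3.58.1 (R 4.3.3), the 3 hairpin means were estimated from the 6 arrays together (3 residual degrees of freedom), and the replicate numbers with the hairpin as a factor (2), two-sided, with Benjamini-Hochberg adjustment. The fits were run on simulated data with noise drawn separately for each array, which leaves out scatter that same-numbered arrays share. Members and lists were chosen with earlier results of these data known.

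The named genes were the 8 members, SAT1, RRM2B, TK2, DGUOK, CAD, 3 cell cycle markers, the 3 largest differences of each other list and the 3 nearest profiles of each member. One further gene of that rule is not reported here. Alternatives tried were a block for the replicate number, all clusters or those above the 75th percentile, trend and robust options, a further quantile normalization, median centring, only the groups compared, the mean of all rows of a gene, and each array left out in turn. Replicate 1 minus replicate 2 correlated over 33764 clusters at 0.39 between sh50 and shGFP and at 0.35 between sh52 and shGFP. Between sh52 and sh50 it correlated at 0.052. Same-numbered arrays thus deviated partly together with shGFP, and the labels do not say whether a number pairs the samples. The number was left out of the hairpin fits reported first and entered as a block in an alternative. With the block, RRM2, DUT, DCK and SAMHD1 had smaller standard errors, and TYMS, TK1, DTYMK and DCTD had larger ones.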

Additional observations from a re-analysis of the deposited data

How the results depend on the processing

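The 8 members kept the sign of their difference under every alternative other than leaving out an array, in the 3 hairpin comparisons and between the replicate numbers, and 0 members were called by limma under any alternative run. With the replicate number as a block, 0 transcript clusters and 0 members were called in each hairpin comparison, as without it, and the smallest adjusted p was 0.315 for sh50 and 0.349 for sh52. Between the replicate numbers, 4 clusters were called without the hairpin term, against 9 with it. Leaving out 1 array in turn, the count of called clusters ran from 0 to 18 between the replicate numbers (0 without an sh50 or shGFP array, 18 without an sh52 array), from 0 to 1 for sh52 (1 without sh52 replicate 2) and stayed at 0 for sh50 and for both hairpins averaged. The members whose arrays did not overlap, in either direction, then ranged from 6 to 8 for sh50, from 5 to 8 for sh52, from 5 to 6 for both averaged and from 2 to 3 between the replicate numbers. The 8 were 7 lower and 1 higher for sh50 without shGFP replicate 2, and 6 lower and 2 higher for sh52 without sh52 replicate 1. A group of 1 array overlaps less often by construction: over all clusters the share was 39.3% for sh50 and 39.7% for sh52 with all arrays, and reached 71.4% and 76.4% with 1 left out. For both averaged the share was 19.1% with all arrays and 23.5% to 42.9% with 1 left out. Between the replicate numbers it was 12.4% and then 20.1% to 25.3%. With the mean of both RRM2 rows and all arrays, the members that did not overlap were 4 for sh52 and 4 for both averaged. Leaving out 1 array, SAMHD1 ran from -0.11 to 0.10 with sh50, from -0.29 to 0.14 with sh52 and from -0.15 to 0.066 with both averaged, DCTD from -0.39 to 0.017 with sh52 and from -0.21 to 0.056 between the replicate numbers, TYMS from -0.38 to 0.60 and TK1 from -0.34 to 0.23 between the replicate numbers. With both hairpins averaged SAT1 ran from -0.86 to 0.64, RRM2B from -0.0060 to 1.57 and TK2 from -0.018 to 0.16. The cause of these turns was not tested. With 2 arrays a group, a group left with 1 array has no spread of its own and is assumed to vary like the others.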
